A study of Homo sapiens with 8 samples.

Results

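The SLC25 family of mitochondrial carriers was followed through 8 RNA-seq libraries of MOLM13, an established human acute myeloid leukaemia cell line. Members were all genes whose symbol is SLC25A followed by a number and that were not listed at 0 in all 8 libraries: 46 of the 48 such symbols, SLC25A2 and SLC25A52 being listed at 0 throughout, out of 24432 genes of the table that were not 0 everywhere. Of the 46, 41 passed the filter on low values and were tested, among 13030 genes tested in all. The 8 libraries formed 4 groups of 2. Control cells carried the genotype label WT. Knockdown cells had IGF2BP2, an RNA-binding protein of the insulin-like growth factor 2 mRNA-binding family, lowered by a short hairpin. Rescue cells carried IGF2BP2 put back, and mutant rescue cells carried a mutant IGF2BP2 put back. Cells had been infected with virus in the presence of polybrene and selected with puromycin where needed. The labels do not name the mutation, the hairpin or the vectors in control and knockdown cells, and give no age, dose or time. Nor do they say that the 2 libraries of a group came from separate cultures, so each p-value below is set by how far these libraries scatter, which could be technical scatter only.

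Most SLC25 proteins sit in the inner mitochondrial membrane and move small molecules between the cytosol and the matrix, most of them as exchangers built from a repeated fold. They bring ADP and phosphate in and ATP out, pass malate, citrate and other organic acids across, and supply the matrix with amino acids, acylcarnitine, iron and cofactors. They are made in the cytosol from nuclear genes and inserted by the import machinery for carrier proteins. In leukaemia cells, as in other dividing cells, they connect respiration with the synthesis of lipids, nucleotides and heme.

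All levels below are the authors' log2 values, normalised across the libraries, and differences are between group means of 2 libraries on the same scale. Transcript length is not taken out, so levels are compared between libraries and not between genes. Differences were tested with limma across all 13030 genes, and a gene was called at a Benjamini-Hochberg adjusted p under 0.05. Targeted IGF2BP2 stood at 10.94 and 10.89 in control, 10.24 and 10.25 in knockdown, 11.37 and 11.13 in rescue and 11.03 and 10.68 in mutant rescue. It was lowest in both knockdown libraries, by -0.67 against control (limma adjusted p = 0.0147), and rose against knockdown by 1.00 in rescue (0.00324) and 0.61 in mutant rescue (0.0298). Sequencing depth is unknown, because the table holds no counts. Library medians over the tested genes ran from 8.30 to 8.41. The 2 mutant rescue libraries differed most from each other, with a standard deviation over genes of 0.303 for the difference between replicates, against 0.148 in knockdown, and mutant rescue 2 stood apart from the other libraries. All 9 myeloid markers chosen for MOLM13, CD33, FLT3 and SPI1 among them, were above the filter, while none of 4 T cell, 4 erythroid and 3 fibroblast markers was. As a share of the linear total of a library, in ppm, their sum was 3720 to 4050 in control, 11200 to 11600 in knockdown, 8280 to 9510 in rescue and 16500 to 24100 in mutant rescue, and was carried mainly by LYZ, the gene of lysozyme. Its members did not move together: in knockdown against control LYZ and CSF1R rose by 1.92 and 1.27 (limma adjusted p = 0.00195 and 0.00194), HOXA9 fell by -0.70 (0.00389), the other 6 were not called, and the median over the 9 was -0.04. The part of these markers in the differences of the carriers below was not tested. In bulk RNA, fewer cells of a kind and less RNA per cell cannot be told apart.

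At the threshold, knockdown lowered 3 carriers and raised none. SLC25A4, an ADP/ATP exchanger, SLC25A11, the malate and oxoglutarate carrier, and SLC25A15, the mitochondrial ornithine carrier, fell by 1.53, 1.42 and 1.41 times. These sizes are on the scale of the normalised values, at log2 differences of -0.61, -0.51 and -0.49. The authors' deposited log2 fold changes were -0.84, -0.66 and -0.68. The 3 are 7.32% of the 41 members tested, and 7.44% of all genes tested were called lower, so the share in the family was near the background. None of the 41 members was called higher, against 5.35% of all genes. At an unadjusted p under 0.05, 5 members were higher and 7 lower. The median difference over members was -0.06, against 0.01 over all genes, and the members ran from -0.61 to 0.45. The authors' deposited table, whose adjusted p-values come from a comparison of its own, called 9 members lower (22.0%, with 13.4% of all genes) and 2 higher, SLC25A37 and SLC25A44 (4.88%, with 6.72% of all genes). Its 9 were SLC25A1, SLC25A4, SLC25A10, SLC25A11, SLC25A15, SLC25A17, SLC25A36, SLC25A39 and SLC25A43, and held all 3 named above. By limma 1 member was lower without control 1, 0 without control 2 and 5 without either mutant rescue library. Leaving out either mutant rescue library also gave 3 members higher, SLC25A20, SLC25A37 and SLC25A44, while without knockdown 1 or knockdown 2 no member was called in any of the 4 comparisons.

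Rescue against knockdown left no member past the threshold in either direction, with 3.22% of all genes called higher and 1.02% lower. At an unadjusted p under 0.05, 3 members were higher and 3 lower. The median over members was 0.01 and the range -0.39 to 0.42. In the authors' deposited table SLC25A4 and SLC25A11 were higher and no member lower, with 7.04% of all genes higher and 3.08% lower. Both are among the 3 that fell in the knockdown. That fall was read from the same knockdown libraries, so the fall and the rise are not independent of each other. By limma SLC25A4 alone passed, as higher, when either mutant rescue library was left out.

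Mutant rescue against knockdown raised 4 members and lowered none. Among them were SLC25A11, SLC25A37, the iron importer known as mitoferrin 1, and SLC25A39, a carrier needed for mitochondrial glutathione. The 4 are 9.76% of the members tested, and 5.58% of all genes were called higher and 5.73% lower. At an unadjusted p under 0.05, 8 were higher and 4 lower, and the median over members was -0.05, against 0.05 over all genes. The authors' deposited table had 3 members higher, SLC25A11 and SLC25A37 among them but not SLC25A39 (deposited adjusted p = 0.0899). No member was lower there, and 4.37% of all genes were higher and 3.5% lower. By limma 9 members were higher without mutant rescue 1 and 0 without mutant rescue 2. Rescue and mutant rescue were set against the same 2 knockdown libraries, so these comparisons are not independent of each other.

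Set directly against each other, rescue was lower than mutant rescue in 3 members and higher in none. The 3 were SLC25A5 and SLC25A6, both ADP/ATP exchangers like SLC25A4, and SLC25A20, which takes acylcarnitines into the matrix for fatty acid oxidation. They make up 7.32% of the members tested, with 4.61% of all genes called lower and 5.9% higher. At an unadjusted p under 0.05, 3 members were higher and 6 lower. The authors' deposited table called SLC25A6 and SLC25A37 lower (4.88% of members, with 3.98% of all genes) and no member higher, with 3.68% of all genes higher. By limma 7 members were lower without mutant rescue 1, and 0 without mutant rescue 2, either rescue library or either knockdown library. The plot of all members against the spread of all genes shows 2, 2, 3 and 3 of the 41 members beyond the 5th or 95th percentile of all genes, in the order of comparisons given above.

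**Figure D1:**
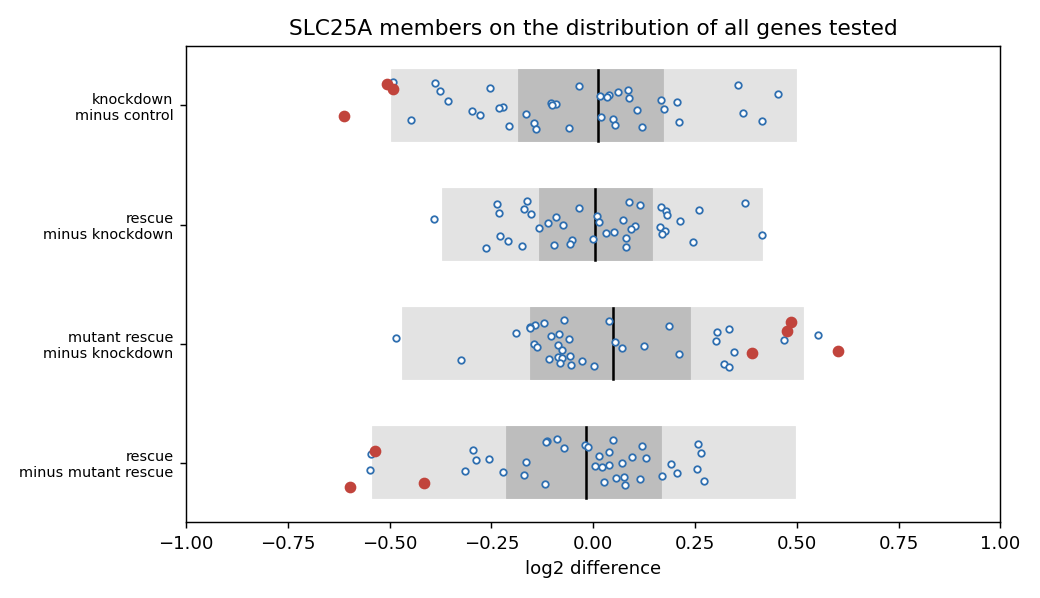
Difference of group means (log2) for the 41 tested SLC25A members (points) in the 4 comparisons, over the range of all 13030 genes tested: light grey from the 5th to the 95th percentile, dark grey from the 25th to the 75th, black line at the median. Red points are members called by limma, and the vertical spread of points within a comparison has no meaning. Most members lie within the grey range, and the called ones all lie beyond the dark grey part.

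**Figure D2:**
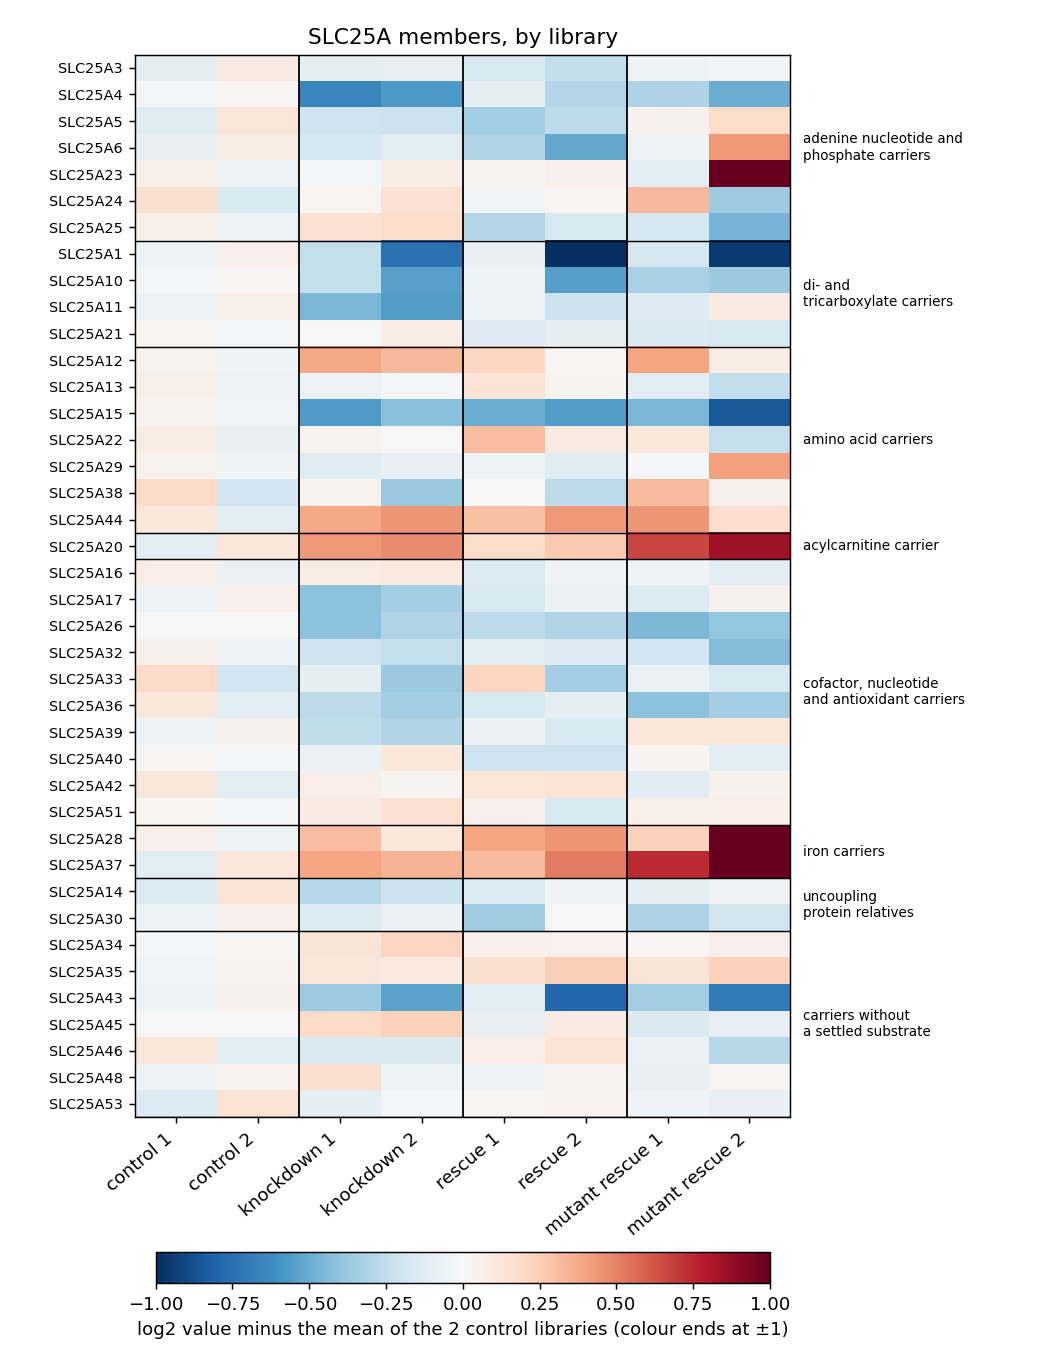
Log2 level of the tested members described in the text in each of the 8 libraries, less that member's mean over the 2 control libraries, grouped by what the carriers move (blue lower, red higher, colour ending at a difference of 1 either way). SLC25A4, SLC25A11 and SLC25A15 are blue in both knockdown libraries, and SLC25A1 is darkest blue in the second library of knockdown, rescue and mutant rescue.

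Adenine nucleotide and phosphate carriers numbered 9, of which 7 were tested. SLC25A4 (chr4:185143241-185150382, plus strand, GRCh38, protein-coding) is the ADP/ATP exchanger best known from heart and skeletal muscle. Its log2 level was 9.79 and 9.83 in control, 9.16 and 9.24 in knockdown, 9.71 and 9.52 in rescue and 9.50 and 9.32 in mutant rescue. Both knockdown libraries lay below all the others, control lay highest, and the libraries of the remaining groups lay between. The fall in knockdown was -0.61 (SE 0.112, limma adjusted p = 0.0115). Against knockdown, rescue differed by 0.41 (adjusted p = 0.0802) and mutant rescue by 0.21 (adjusted p = 0.221), neither past the threshold. The knockdown call was lost without control 2, knockdown 1 or knockdown 2, at adjusted p-values of 0.0723, 0.12 and 0.0979.

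The other exchangers of this kind, SLC25A5 and SLC25A6, were not called in knockdown. SLC25A5 (chrX:119468400-119471319, plus strand) is the form of dividing cells, and stood at 12.96 and 13.20 in control, 12.88 and 12.87 in knockdown, 12.74 and 12.82 in rescue and 13.12 and 13.26 in mutant rescue. SLC25A6 (chrX:1386152-1392724, minus strand) lies in the part of X that is shared with Y. It stood at 11.97 and 12.12 in control, 11.88 and 11.94 in knockdown, 11.75 and 11.54 in rescue and 12.00 and 12.48 in mutant rescue. In both genes the rescue libraries were the lowest of all 8 and did not overlap mutant rescue. SLC25A5 was lower in rescue than in mutant rescue by -0.42 (SE 0.110, limma adjusted p = 0.0466) and SLC25A6 by -0.60 (SE 0.156, adjusted p = 0.0459). In knockdown against control they differed by -0.21 (adjusted p = 0.253) and -0.14 (adjusted p = 0.592). Whether these differ from the fall of SLC25A4 was not tested. SLC25A6 kept its call in 1 of 8 fits that left out a library, the one without mutant rescue 1, and without mutant rescue 2 its difference was -0.35 (adjusted p = 0.137). Its adjusted p was 0.0701 and 0.0703 without control 1 and 2, 0.091 and 0.0911 without knockdown 1 and 2, and 0.0815 and 0.223 without rescue 1 and 2. SLC25A5 kept its call in 3 of 8 and lost it without either knockdown library (adjusted p = 0.106 each), rescue 1 (0.158), rescue 2 (0.153) or mutant rescue 2 (0.14). Of the stretches of 31 bases in SLC25A5 transcripts, 25.5% also occur in other genes, its own pseudogenes among them, so reads of SLC25A5 could be split or shared in counting, while the shares were 1.52% for SLC25A4 and 2.41% for SLC25A6.

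The 300 bases around the start of these 3 paralogs and of the 2 other carriers that fell in knockdown are shown, to set the promoters of members called in different comparisons side by side. They come from RefSeq on GRCh38.p14 and run 5′ to 3′ on the gene's strand across the annotated start: SLC25A4 at chr4:185143016-185143315 (plus), SLC25A5 at chrX:119468194-119468493 (plus), SLC25A6 at chrX:1392064-1392363 (minus), SLC25A11 at chr17:4939997-4940296 (minus) and SLC25A15 at chr13:40789361-40789660 (plus). The starts are those annotated in RefSeq. The SLC25A6 window lies wholly inside the gene span given above, downstream of the start of that span. Capitals mark an ETS core (CCGGAAG) or a CCAAT box (CCAAT), found on either strand.
SLC25A4: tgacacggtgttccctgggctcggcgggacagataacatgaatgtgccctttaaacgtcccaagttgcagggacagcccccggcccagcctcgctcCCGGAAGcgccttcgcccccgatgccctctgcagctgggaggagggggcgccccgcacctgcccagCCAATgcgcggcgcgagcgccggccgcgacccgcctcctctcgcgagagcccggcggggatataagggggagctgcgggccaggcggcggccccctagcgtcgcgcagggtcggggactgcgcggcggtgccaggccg
SLC25A5: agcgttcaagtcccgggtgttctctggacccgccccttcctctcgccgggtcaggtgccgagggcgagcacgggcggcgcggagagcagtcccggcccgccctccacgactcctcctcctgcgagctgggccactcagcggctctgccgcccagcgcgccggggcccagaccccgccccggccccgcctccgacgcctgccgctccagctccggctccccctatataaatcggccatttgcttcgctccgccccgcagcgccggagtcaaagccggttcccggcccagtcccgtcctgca
SLC25A6: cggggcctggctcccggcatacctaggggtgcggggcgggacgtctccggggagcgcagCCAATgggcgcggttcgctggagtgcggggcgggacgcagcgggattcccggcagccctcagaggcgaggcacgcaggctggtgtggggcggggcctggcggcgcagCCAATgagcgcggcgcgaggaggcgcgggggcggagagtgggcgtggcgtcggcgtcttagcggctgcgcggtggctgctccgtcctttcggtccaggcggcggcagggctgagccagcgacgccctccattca
SLC25A11: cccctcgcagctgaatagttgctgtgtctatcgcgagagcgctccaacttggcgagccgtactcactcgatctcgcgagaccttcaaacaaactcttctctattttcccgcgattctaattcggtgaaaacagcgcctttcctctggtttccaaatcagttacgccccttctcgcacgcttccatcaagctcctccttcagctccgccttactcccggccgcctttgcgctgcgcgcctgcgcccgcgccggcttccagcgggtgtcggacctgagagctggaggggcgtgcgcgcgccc
SLC25A15: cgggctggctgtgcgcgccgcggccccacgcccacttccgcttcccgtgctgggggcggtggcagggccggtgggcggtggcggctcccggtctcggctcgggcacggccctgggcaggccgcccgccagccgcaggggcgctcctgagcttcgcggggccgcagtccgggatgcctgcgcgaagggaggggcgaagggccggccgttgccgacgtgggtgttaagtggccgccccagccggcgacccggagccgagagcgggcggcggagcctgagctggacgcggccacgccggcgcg
The SLC25A4 promoter held both an ETS core and a CCAAT box, that of SLC25A6 held a pair of CCAAT boxes, and none of the searched motifs was in the windows of SLC25A5, SLC25A11 and SLC25A15. Promoters were found for 39 of the 46 members; SLC25A16, SLC25A30, SLC25A32, SLC25A35, SLC25A37 and SLC25A41 were among those with no entry. Over those 39, CCAAT was in 48.7%, the ETS core in 20.5%, the E-box CACGTG in 17.9%, the cyclic AMP response element TGACGTCA in 7.69% and the NRF1 core GCGCATGC in 0, both strands searched. Over all 35116 promoters of the same length the shares were 34.6%, 10.3%, 7.26%, 1.85% and 3.05%. The larger set holds every kind of gene in the table and not only mitochondrial ones, and a match gives letters in the window, not a bound site. SLC25A20 also held an ETS core, and no marked motif overlapped another.

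SLC25A3, the phosphate carrier, stood between 12.75 and 13.09 in the 8 libraries, with no difference called. The calcium-regulated ATP-Mg and phosphate carriers SLC25A23, SLC25A24 and SLC25A25 were tested and not called. In SLC25A23, 7 libraries lay between 7.09 and 7.28 and mutant rescue 2 stood at 8.50. SLC25A25 was 7.47 and 7.36 in control, 7.57 and 7.60 in knockdown, 7.12 and 7.26 in rescue and 7.25 and 6.95 in mutant rescue. Its rescue and mutant rescue libraries all lay below control and knockdown, by -0.39 in rescue against knockdown (limma adjusted p = 0.162) and -0.49 in mutant rescue against knockdown (adjusted p = 0.0547). SLC25A31, the germ cell ADP/ATP exchanger, and SLC25A41 were below the filter, at 0.0558 and 0.901 ppm at most.

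Carriers of di- and tricarboxylates were SLC25A1, SLC25A10, SLC25A11 and SLC25A21, all tested. SLC25A11 (chr17:4937130-4940251, minus strand) exchanges oxoglutarate for malate in the shuttle that brings reducing equivalents into the matrix. It stood at 11.58 and 11.69 in control, 11.18 and 11.08 in knockdown, 11.58 and 11.42 in rescue and 11.50 and 11.72 in mutant rescue. Both knockdown libraries lay below the other 6, whose values overlapped. The gene fell by -0.51 in knockdown (SE 0.110, limma adjusted p = 0.0215) and rose by 0.48 in mutant rescue against knockdown (SE 0.110, adjusted p = 0.0333). In rescue against knockdown the difference was 0.37 (adjusted p = 0.104), and rescue and mutant rescue differed by -0.11 (adjusted p = 0.512). The fall was not called without control 1 (adjusted p = 0.0501), control 2 (0.118), knockdown 1 (0.125) or knockdown 2 (0.188). The rise was not called without knockdown 1 (adjusted p = 0.159), knockdown 2 (0.243) or mutant rescue 2 (0.104). SLC25A11 was the single member called in more than 1 comparison, and both of them use the knockdown libraries.

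**Figure D3:**
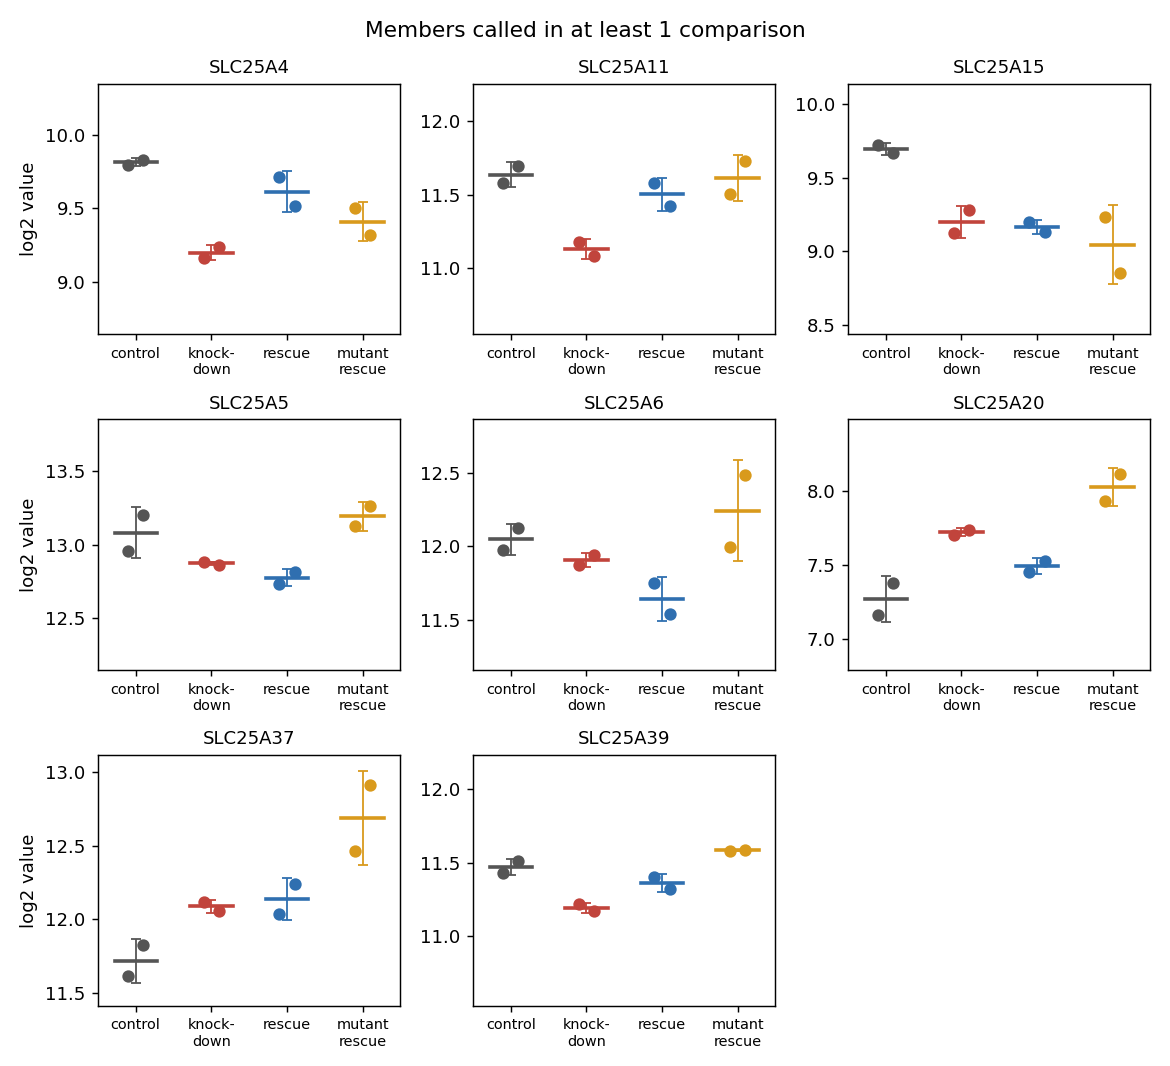
Log2 level of 8 called members in the 8 libraries (points), with the group mean as a line and the SD of the 2 libraries as a bar. SLC25A4 and SLC25A11 are lowest in knockdown, while SLC25A37 and SLC25A39 are highest in mutant rescue.

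SLC25A1 exports citrate, the source of cytosolic acetyl groups for lipid synthesis. Its level was 10.69 and 10.78 in control, 10.50 and 9.99 in knockdown, 10.66 and 9.50 in rescue and 10.57 and 9.78 in mutant rescue. The second library was well below the first in 3 of the 4 groups, so the spread within groups was wider than the differences between them. Knockdown against control came to -0.49 with an SE of 0.372 (limma adjusted p = 0.422), although the authors' deposited table calls it lower. SLC25A10, the dicarboxylate carrier, was 8.977 and 8.995 in control, 8.75 and 8.44 in knockdown, 8.93 and 8.44 in rescue and 8.66 and 8.61 in mutant rescue (knockdown minus control -0.39, adjusted p = 0.173). Of its stretches of 31 bases, 58.3% are shared with AC139530.2, so its values are uncertain. SLC25A21, which carries oxodicarboxylates, lay just above the filter at 4.10 to 4.33, with no call.

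Amino acid carriers numbered 8 members, of which 7 were tested, and 1 was called. SLC25A15 (chr13:40789412-40810111, plus strand) exchanges ornithine for citrulline in the urea cycle. It was 9.72 and 9.67 in control, 9.12 and 9.28 in knockdown, 9.20 and 9.13 in rescue and 9.23 and 8.86 in mutant rescue. Both control libraries lay above the other 6, and the rescue and mutant rescue libraries overlapped knockdown or lay below it. The knockdown fall was -0.49 (SE 0.136, limma adjusted p = 0.0488). Rescue differed from knockdown by -0.04 (adjusted p = 0.92) and mutant rescue by -0.16 (adjusted p = 0.448). The call stood in 2 of 8 fits that left out a library, those without a mutant rescue library. It was lost without control 1 or control 2 (adjusted p = 0.156 each), knockdown 1 (0.283), knockdown 2 (0.171), rescue 1 (0.0723) or rescue 2 (0.0724).

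SLC25A44, a carrier of branched-chain amino acids, was 9.82 and 9.60 in control, 10.10 and 10.15 in knockdown, 10.00 and 10.14 in rescue and 10.15 and 9.88 in mutant rescue. Its control libraries were the lowest of the 8, with a knockdown difference of 0.41 (limma adjusted p = 0.0641), which the authors' deposited table calls higher. SLC25A12 and SLC25A13, the aspartate and glutamate exchangers, showed knockdown differences of 0.36 (adjusted p = 0.134) and -0.04 (adjusted p = 0.855). SLC25A22, a glutamate carrier, SLC25A29, a carrier of basic amino acids, and SLC25A38, which supplies glycine for heme synthesis, differed from control by 0.02, -0.10 and -0.17, and none was called in any comparison. SLC25A18, another glutamate carrier, was below the filter at 0.507 ppm at most.

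SLC25A20 (chr3:48856931-48898993, minus strand) was the sole acylcarnitine carrier. Its level was 7.16 and 7.38 in control, 7.71 and 7.74 in knockdown, 7.45 and 7.53 in rescue and 7.94 and 8.12 in mutant rescue. The groups did not overlap, in the order control, rescue, knockdown and mutant rescue. Rescue was lower than mutant rescue by -0.54 (SE 0.129, limma adjusted p = 0.0369). Knockdown minus control was 0.45 (adjusted p = 0.0537), rescue minus knockdown -0.23 (adjusted p = 0.373) and mutant rescue minus knockdown 0.30 (adjusted p = 0.141). The knockdown difference passed the threshold in 4 of the 6 alternative settings other than leaving a library out. In these 4 the limma adjusted p ran from 0.0321 to 0.0428, so the call depends on the setting. Between the 2 rescues the call did not hold without knockdown 1 or knockdown 2 (adjusted p = 0.0832 each), rescue 1 (0.123), rescue 2 (0.131) or mutant rescue 2 (0.112).

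Carriers of cofactors and nucleotides, with those of antioxidants, were the largest group with 11 members, all tested, of which 2 were called, as higher in mutant rescue than in knockdown. SLC25A39 (chr17:44319625-44324870, minus strand), needed for glutathione uptake into the matrix, was 11.43 and 11.51 in control, 11.22 and 11.17 in knockdown, 11.41 and 11.32 in rescue and 11.58 and 11.59 in mutant rescue. Its knockdown libraries were the lowest and its mutant rescue libraries the highest, 0.39 apart (SE 0.0859, limma adjusted p = 0.0315). Knockdown minus control was -0.28 (adjusted p = 0.0686) and rescue minus knockdown 0.17 (adjusted p = 0.327). The call was lost without knockdown 1, knockdown 2 or mutant rescue 2, at adjusted p-values of 0.174, 0.243 and 0.0765.

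In this group 9 members were not called. SLC25A17, a peroxisomal carrier of nucleotide cofactors, was 9.001 and 9.102 in control, 8.64 and 8.71 in knockdown, 8.89 and 8.98 in rescue and 8.92 and 9.10 in mutant rescue. Its knockdown libraries lay below the other 6, at -0.38 from control (limma adjusted p = 0.0595). It passed in 4 of the 6 alternative settings other than leaving a library out (limma adjusted p from 0.0358 to 0.0493). SLC25A26, the carrier of S-adenosylmethionine, stood at 7.87 and 7.86 in control and from 7.42 to 7.59 in the other 6 libraries, with a knockdown difference of -0.36 (adjusted p = 0.0723). SLC25A36, a pyrimidine nucleotide carrier, differed by -0.30 (adjusted p = 0.0905), and SLC25A33, of like function, by -0.23 (adjusted p = 0.505). SLC25A33 shares 31.3% of its stretches of 31 bases with other genes. SLC25A32, the carrier of folate and flavin adenine dinucleotide, differed by -0.22 (adjusted p = 0.198), but 88.0% of its stretches of 31 bases lie also in AC012213.5. SLC25A16 and SLC25A42, linked to coenzyme A, SLC25A40, a close relative of SLC25A39, and SLC25A51, the NAD carrier, differed from control by 0.08, 0.05, 0.02 and 0.12. SLC25A51 shares 43.6% of its stretches with other genes, SLC25A52 above all.

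Iron carriers were SLC25A28 and SLC25A37, known as mitoferrin 2 and mitoferrin 1, which bring iron to heme and iron-sulfur cluster assembly. SLC25A37 (chr8:23528805-23575463, plus strand) was 11.61 and 11.83 in control, 12.12 and 12.06 in knockdown, 12.04 and 12.24 in rescue and 12.46 and 12.91 in mutant rescue. Control was lowest, mutant rescue highest, and knockdown and rescue overlapped between them. The rise in mutant rescue against knockdown was 0.60 (SE 0.153, limma adjusted p = 0.0431). It was 0.38 without mutant rescue 2 (adjusted p = 0.128). Its call stood in 1 of 8 fits that left out a library, the one without mutant rescue 1, and the adjusted p was 0.056 to 0.057 without a control or rescue library and 0.183 or 0.246 without knockdown 1 or knockdown 2. Rescue minus mutant rescue was -0.55 (adjusted p = 0.0552) and knockdown minus control 0.37 (adjusted p = 0.153). Erythroid markers, which mark the cells best known for mitoferrin 1, were all below the filter, at 0.156 to 0.189 ppm in sum. Values that low are drawn together by the normalisation, so this sum could hardly show a small change. SLC25A28 was 5.50 and 5.40 in control, 5.75 and 5.56 in knockdown, 5.84 and 5.89 in rescue and 5.68 and 6.57 in mutant rescue, with mutant rescue 2 again far from mutant rescue 1 and no difference called.

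**Figure D4:**
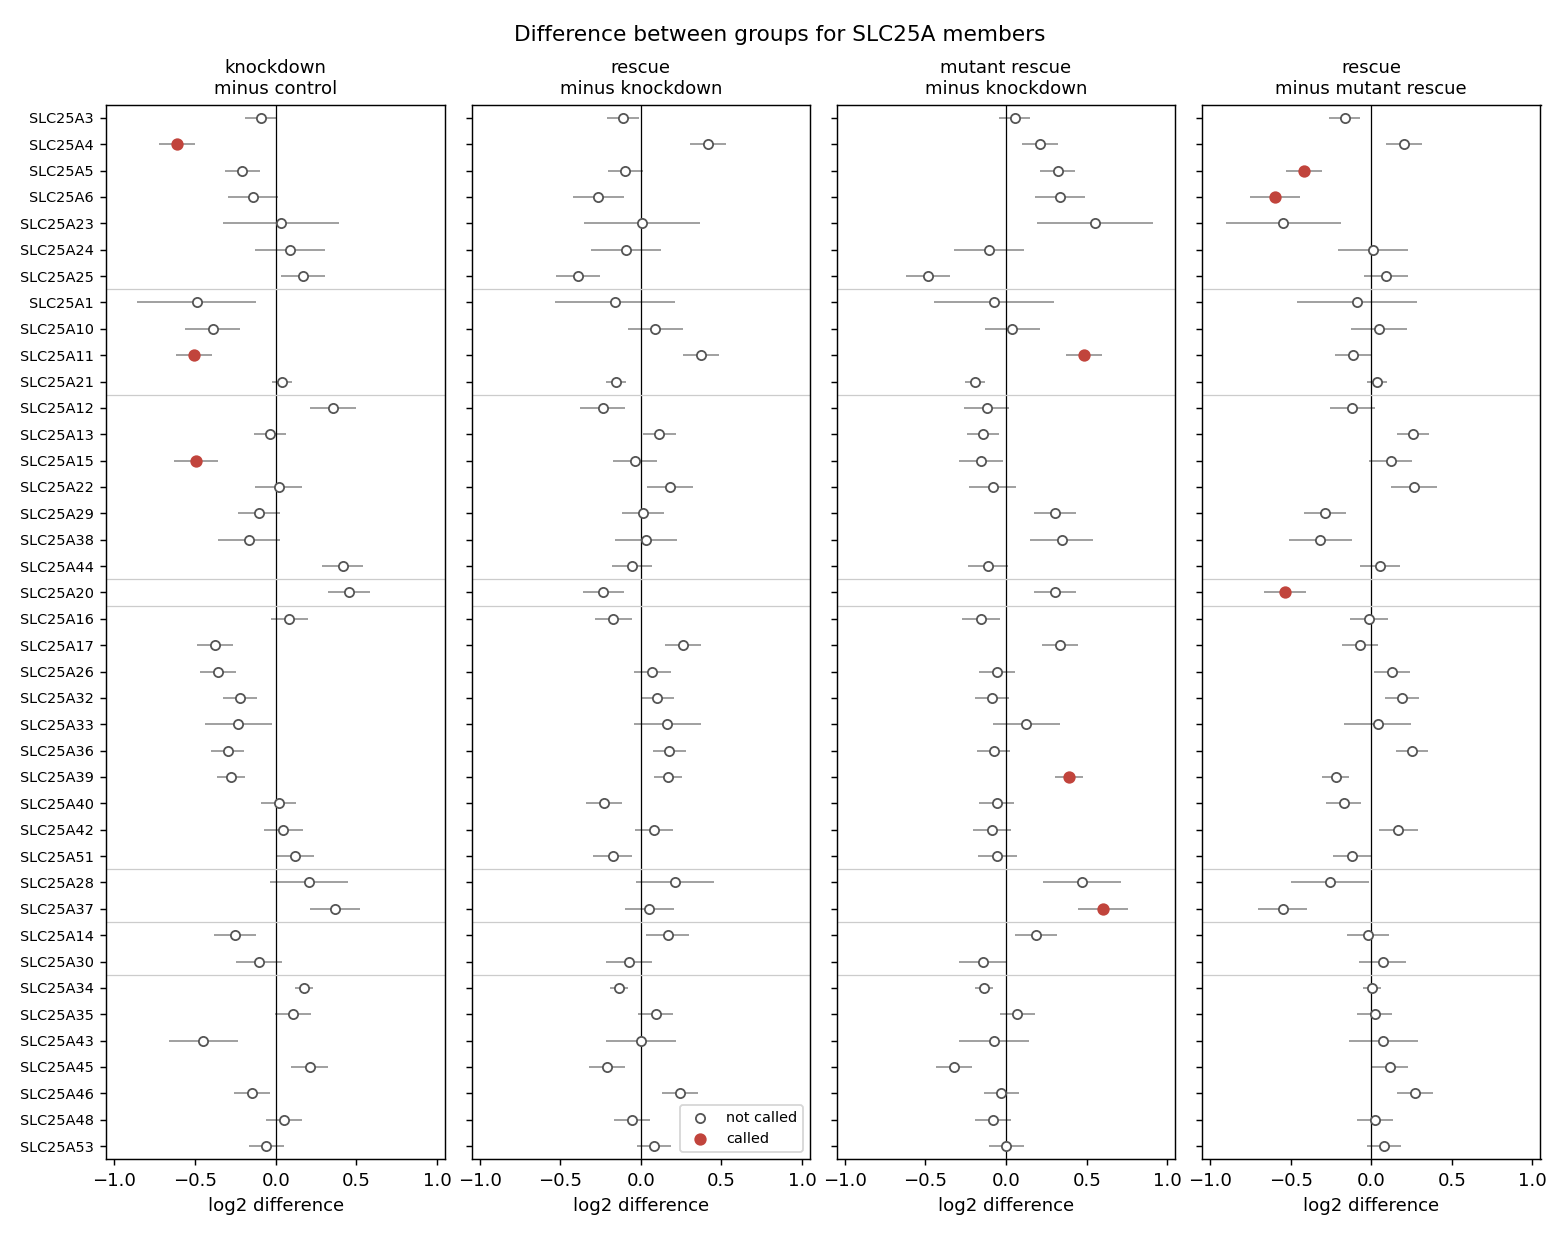
Difference of group means (log2) with its standard error for the tested members described in the text, by role group, in the 4 comparisons, with called differences as filled red points and grey lines between role groups. Members of a role group lie on both sides of 0 in most comparisons, except for the iron and acylcarnitine carriers. The 2 iron carriers share a side in every comparison, and the acylcarnitine carrier is the single member of its group.

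Uncoupling protein relatives SLC25A14 and SLC25A30 were tested and not called, with knockdown differences of -0.25 (limma adjusted p = 0.246) and -0.10 (adjusted p = 0.687), and SLC25A27 was below the filter at 0.0224 ppm at most. Of 8 carriers without a settled substrate, 7 were tested and none was called. They were SLC25A34, SLC25A35, SLC25A43, SLC25A45, SLC25A46, SLC25A48 and SLC25A53, with SLC25A47 below the filter at 0.0173 ppm. SLC25A34 had the smallest adjusted p in knockdown, 0.0749, for a difference of 0.17, and lay just inside the filter, with 3 libraries at 1 ppm or more. SLC25A43 was 8.04 and 8.13 in control, 7.72 and 7.56 in knockdown, 7.97 and 7.31 in rescue and 7.74 and 7.39 in mutant rescue. Control was highest, and the second library lay below the first in the other 3 groups, so the knockdown difference of -0.45 did not pass (adjusted p = 0.211).

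Genes around the carriers were read from lists of import factors, other transporters, enzymes and regulators. Of 15 import genes, which include the TIM22 insertion complex and the TOM entry pore, 3 fell in knockdown and none rose: TIMM10B by -0.69 (limma adjusted p = 0.00598), TOMM6 by -0.51 (0.0423) and TIMM22, the channel that inserts carriers, by -0.40 (0.0405). Of all genes tested, 7.44% were called lower and 5.35% higher in this comparison. The median over the 15 was -0.31, against 0.01 over all genes. None was called in rescue against knockdown, where 1 was higher at an unadjusted p under 0.05. TIMM8B rose in mutant rescue against knockdown by 0.60 (0.0441). It stood at 10.83 and 10.74 in knockdown, 11.16 in mutant rescue 1 and 11.61 in mutant rescue 2, the library that stood apart. Of 3 tested relatives under other names, UCP2, MTCH1 and MTCH2, none was called in limma in any comparison. At an unadjusted p under 0.05, 2 of these were lower in knockdown and 1 higher in mutant rescue.

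In the lists that follow, called counts stand beside the shares over all genes given above, which in knockdown against control were 7.44% lower and 5.35% higher. Of 17 other mitochondrial transporters, 3 fell in knockdown and 1 rose. MICU2, a regulator of the calcium uniporter, fell by -0.57 (limma adjusted p = 0.0093), SFXN1, which imports serine, by -0.41 (0.0198) and SFXN4 by -0.40 (0.0295). SFXN3 rose by 0.59 (0.011), and LETM1, a cation exchanger, rose by 0.84 in mutant rescue against knockdown (0.0368). LETM1 stood at 10.77 and 10.50 in knockdown, 11.15 in mutant rescue 1 and 11.80 in mutant rescue 2, the library that stood apart. Among 25 tested enzymes that use what the carriers move, 3 fell in knockdown and 1 rose. TYMS (thymidylate synthase, -0.79, adjusted p = 0.00329), ASS1 (-0.56, 0.00976) and SHMT2 (-0.46, 0.0196) fell in knockdown, and ALAS1, the first enzyme of heme synthesis, rose by 0.39 (0.0416). In the urea cycle ASS1 uses the citrulline that leaves through SLC25A15, and whether it does so in these cells was not tested. Mutant rescue against knockdown, with 5.58% of all genes called higher, raised MDH1 by 0.60 (0.0385) and MDH2 by 0.37 (0.0449), the malate dehydrogenases on either side of SLC25A11. TYMS rose in rescue against knockdown by 0.55 (0.0219).

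CPT1A, which makes the acylcarnitines that SLC25A20 imports, had the largest called difference among these enzymes. It was 10.92 and 11.40 in control, 11.40 and 11.40 in knockdown, 9.77 and 9.98 in rescue and 10.68 and 11.08 in mutant rescue. Both rescue libraries lay below all the others. CPT1A fell in rescue against knockdown by -1.52 (limma adjusted p = 0.00175). It was lower in rescue than in mutant rescue by -1.005 (SE 0.179, adjusted p = 0.0132), as was SLC25A20. CPT1A and SLC25A20 also shared a direction in knockdown against control and in rescue against knockdown. In mutant rescue against knockdown they went opposite ways, by -0.52 and 0.30, neither called. CPT2 and CRAT, other carnitine enzymes of this list, differed between the rescues by -0.02 and -0.15, neither called. A link between CPT1A and SLC25A20 was not tested. Of 10 tested regulators of mitochondrial gene expression, ESRRA rose in knockdown by 0.68 (0.0251) and TFAM, which packages mitochondrial DNA, fell by -0.415 (0.028). MYC and TFB1M rose in mutant rescue against knockdown by 0.65 (0.029) and 0.43 (0.0413).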

How the data were processed

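Poly(A) RNA of 8 MOLM13 libraries in 4 groups of 2 was measured by RNA-seq. HOMER, kallisto and Trim Galore, with the build GRCh38, are listed without versions or roles in the submitters' processing notes. Per the file headers, the authors' table from HOMER holds log2 values normalised across libraries, in which low genes are drawn together, and, for each pair of groups, a deposited log2 fold change and adjusted p-value. No source used here gives the model behind those p-values, or the depth. Of 35370 genes listed, 10937 were 0 in every library, and 1 row had no symbol.

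Values were made linear and scaled to a share of each library's total in ppm, and genes with at least 1 ppm in 2 libraries were tested (13030). limma 3.58.1 in R 4.3.3 fitted group means over all 8 libraries (4 residual degrees of freedom). It used a mean trend and Benjamini-Hochberg adjustment over all genes tested. A run on simulated data used normal noise with the same spread in all groups, so it does not cover the wider scatter of mutant rescue. Fold sizes are on the log2 scale of the authors' values. Alternatives were no filter, a minimum of 5 ppm, centred medians, only the compared groups, no trend, a replicate block and each library left out. Genes named by rule were IGF2BP2, every called member, the member with the smallest knockdown p in each role, members at the filter, and up to 4 called genes per list in each comparison; further members are given to account for all 46. PRMT6 and MFSD2A were also read as checks: in knockdown against control PRMT6 fell by 1.20 (adjusted p = 0.000936) and MFSD2A rose by 0.49 (0.0469). In summed ppm, T cell markers ran from 0.81 to 1.01, fibroblast markers from 1.39 to 1.61, B cell markers from 2.59 to 3.98 (1 of 4, PAX5, above the filter) and epithelial markers from 7.93 to 12.4 (3 of 4). The members and lists were chosen with earlier results of these data known. Positions are from GENCODE v29 on GRCh38. Motifs were searched on both strands. The values of 1 called member are not reported here, though it is counted in the totals.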

Additional observations from a re-analysis of the deposited data

Results flagged for a closer look

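SLC25A5, SLC25A6 and SLC25A20 were the members called by limma when rescue was set directly against mutant rescue. Rescue minus mutant rescue was -0.42 for SLC25A5, -0.60 for SLC25A6 and -0.54 for SLC25A20 (limma adjusted p = 0.0466, 0.0459 and 0.0369). Without mutant rescue 2 these differences were -0.35, -0.35 and -0.44. The authors' deposited adjusted p was 0.0293 for SLC25A6, but 0.077 for SLC25A5 and 0.0664 for SLC25A20, which that table did not call. IGF2BP2 itself was higher in rescue than in mutant rescue by 0.39, not past the threshold (limma adjusted p = 0.0839). Whether the differences of these carriers relate to the amount of IGF2BP2 or to its mutation was not tested. Against knockdown, the 2 rescues gave -0.10 and 0.32 for SLC25A5, -0.26 and 0.33 for SLC25A6 and -0.23 and 0.30 for SLC25A20, rescue first, and none of these 6 values passed the threshold on its own.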

How the results depend on the processing

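The 209 alternative values covered 15 differences of single members, some called by limma and some not, and none changed direction. Of these values, 126 stayed on their side of the threshold, 68 lost the call and 15 gained it. Only called differences could lose a call, so all 68 losses fell on those. The 126 include uncalled differences that stayed uncalled. Members lower in knockdown numbered 3, and 1 with no filter on low values, 5 with only the compared groups and 5 without the mean trend; members higher numbered 0, and 1 at 5 ppm, 4 with only the compared groups and 1 without the trend. Members higher in rescue against knockdown numbered 0, and 1 with only the compared groups. For mutant rescue against knockdown the 4 higher became 1 with no filter, 2 with centred medians and 0 with only the compared groups, and the 0 lower became 1 with centred medians and 1 without the trend. The 3 lower in rescue than in mutant rescue became 0 with no filter, 1 with centred medians, 0 with only the compared groups and 1 without the trend. The causes were not tested. Over the 6 alternative settings other than leaving a library out, the knockdown call held in 6 for SLC25A4 and 5 each for SLC25A11 and SLC25A15. The mutant rescue calls held in 4 for SLC25A11, 3 for SLC25A39 and 2 for SLC25A37, and those between the rescues in 3 each for SLC25A6 and SLC25A20 and 2 for SLC25A5.

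Leaving out 1 library gave 0 to 5 members lower and 0 to 3 higher in knockdown, 0 to 1 higher in rescue against knockdown, 0 to 9 higher and 0 to 1 lower in mutant rescue against knockdown, and 0 to 7 lower in rescue than in mutant rescue. The highest counts in knockdown and in rescue against knockdown came without either mutant rescue library, and the others without mutant rescue 1. No member was called in any comparison without knockdown 1 or knockdown 2. Fits that leave a group with 1 library assume that it varies like the others.

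The labels do not say that replicate numbers pair the libraries. Same-numbered deviations correlated above 0.1 in 3 of 6 pairs of groups (0.414, 0.193 and 0.19) and lower in the others (0.0701, 0.02 and -0.0212), so the pairing is not clear from the data and the fit without it was kept. A replicate block gave 4 lower and 1 higher in knockdown, 4 higher in mutant rescue and 4 lower in rescue than in mutant rescue. The calls it added were SLC25A17 (lower) and SLC25A20 (higher) in knockdown and SLC25A37 (lower) between the rescues. Depth is unknown, so no limit of detection can be given.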
